A study of Mus musculus with 6 samples.

Results

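A set of 9 genes of the planar cell polarity machinery were followed across 6 microarrays of mouse NSP cultures: the cadherins Celsr1, Celsr2 and Celsr3, the receptors Fzd3 and Fzd6, the membrane proteins Vangl1 and Vangl2, and the adaptors Prickle1 and Prickle2. They were read by the 22 probe sets annotated to exactly 1 of these 9 genes, out of 45101 probe sets for 18194 genes on the array. NSP is the name the labels give these cells. Brains of E12.5 embryos were dissociated and plated on PDL/Lam dishes, and after a split the cells received a lentivirus overnight and were grown for a further 6 days. In 3 samples the virus expressed an shRNA against REST and in 3 a control (CTL) shRNA, so both groups carried a lentivirus and a hairpin. The protocols give no selection of infected cells, no hairpin sequence and no word on whether the 3 samples of a group are independent cultures, so the p-values below may rest on technical spread alone.

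Planar cell polarity aligns cells within the plane of a tissue. Celsr proteins are large cadherins that cross the membrane several times and bind the same protein on the neighbouring cell, where they hold Frizzled receptors with the adaptor Dishevelled on one face and Vangl with Prickle on the other. In the nervous system the same genes act in neural tube closure, in the alignment of cilia on ependymal cells and in the growth of axon tracts, and in mice the tracts of the forebrain depend on Celsr3 and Fzd3. REST is a repressor that binds an element called RE1 near many neuronal genes.

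The targeted transcript and the cell markers were read first. The 4 probe sets of Rest read between 57.3% and 71.5% of control in the REST shRNA arrays, without overlap between the groups. The brightest, 1428227_at, had log2 signals of 8.63, 7.70 and 8.20 in REST shRNA arrays 1, 2 and 3, against 8.92, 8.75 and 8.90 in control arrays 1, 2 and 3, and the exact two-sided permutation p was 0.1 for each of the 4. All 10 progenitor markers and all 11 neuron markers had a mean above 3.24, the highest signal of 27 bacterial control probe sets and the background reference used here, while 1 of 5 endothelial and 2 of 6 microglia markers did. Correlations with the other arrays ran from 0.955 to 0.977 for REST shRNA array 2. They were close to this for REST shRNA array 3 (0.955 to 0.980) and control array 3 (0.958 to 0.982). What set REST shRNA array 2 apart was its low signals. There 10 genes lay at least 3 log2 units below every other array, against 0 in each of the other arrays. Values without REST shRNA array 2 stand beside the results for Celsr3, Celsr1, Prickle1 and the contrasts. They also stand beside those of other named pathway genes, neighbours and marker lists that this array moved by over 1.5 times.

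Celsr3, the cadherin of the family tied to neurons and axon tracts, was higher in every REST shRNA array than in any control array. Its single probe set, 1425067_at, had log2 signals of 7.23, 8.08 and 8.02 in REST shRNA arrays 1, 2 and 3, against 6.21, 5.76 and 6.06 in control arrays 1, 2 and 3. The lowest REST shRNA array thus lay about 1 log2 unit above the highest control array. The means were 7.78 ± 0.47 in REST shRNA arrays and 6.01 ± 0.23 in control arrays (SD, n = 3 each), a 3.41-fold higher signal. The log2 difference was 1.77 (95% CI 1.13 to 2.40), and it was 1.03, 2.32 and 1.96 in the pairs of arrays with replicate numbers 1, 2 and 3. In limma the unadjusted p was 0.000322, rank 13 of 45101, but the Benjamini-Hochberg adjusted p was 0.923, the smallest value in the table, so Celsr3 did not pass the threshold of 0.05. An exact two-sided permutation test gave 0.1, the smallest value that 3 against 3 arrays allow. Without REST shRNA array 2 the difference was 1.62.

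No probe set of the array passed the adjusted threshold (percent called 0), and neither did any of the 22 members. At an unadjusted p under 0.05 limma counted 1561 probe sets, 3.46% of all, of which 1.53% were higher and 1.93% lower. Of the 22 members 1 was counted, which was Celsr3, and it was higher. Probe sets higher without overlap made up 4.35% of the array and those lower without overlap 3.89%, against 1 member each, Celsr3 and a probe set of Vangl2.

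The RefSeq promoter table (build GRCm38.p6) held 9 start sites of 5 of the 9 genes, and the bases upstream of Celsr3 and Celsr2 are shown for the contrast of Celsr3 with a near relative. Each run holds the 250 bases before the start site on the gene's own strand, chr9:108825795-108826044 on the plus strand for Celsr3 and chr3:108415580-108415829 on the minus strand for Celsr2. Capitals mark a match to the letters CAGCACCNNGGNCAG.
Celsr3: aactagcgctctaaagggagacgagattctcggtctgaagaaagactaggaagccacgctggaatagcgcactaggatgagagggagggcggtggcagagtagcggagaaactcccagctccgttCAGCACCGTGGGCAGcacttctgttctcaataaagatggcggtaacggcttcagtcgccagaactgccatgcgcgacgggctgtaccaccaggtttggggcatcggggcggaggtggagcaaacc
Celsr2: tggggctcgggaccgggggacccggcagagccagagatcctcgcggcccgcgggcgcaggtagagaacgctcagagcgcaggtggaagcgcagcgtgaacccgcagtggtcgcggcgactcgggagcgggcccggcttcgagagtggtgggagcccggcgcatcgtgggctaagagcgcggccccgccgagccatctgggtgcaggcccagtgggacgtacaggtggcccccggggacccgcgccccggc
The letters searched for were the central part of RE1, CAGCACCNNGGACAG, on both strands and in the full windows of 300 bases from 250 before to 50 after the start. That form occurs in 12 of 32851 windows, 0.0365%, and in no window of the 5 genes. With the A left free, a form chosen after the Celsr3 sequence had been read, it occurs in 19 windows, 0.0578%, and among these genes only in that of Celsr3, on the plus strand, where it starts 125 bases before the start site. A match is a description of these letters and not a measured site.

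**Figure D1:**
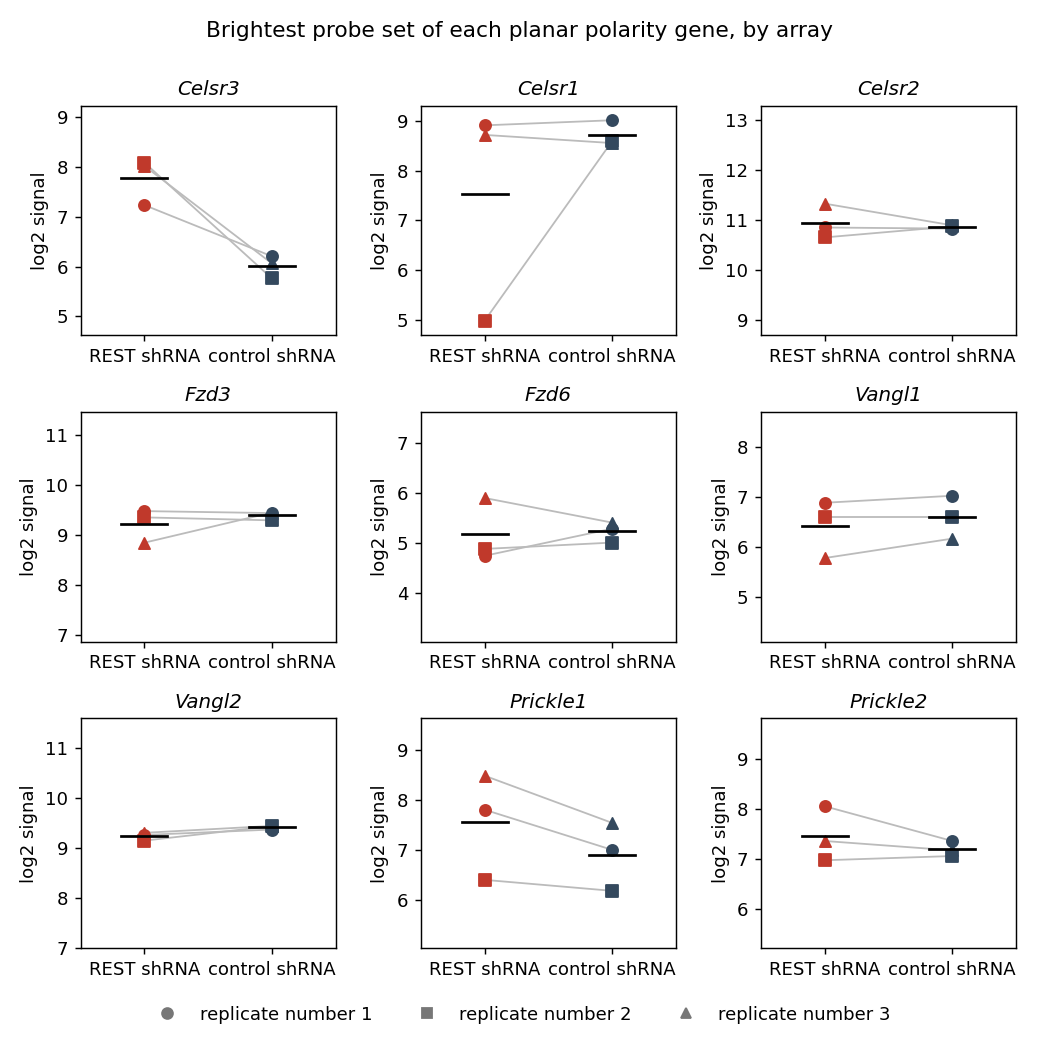
The log2 signal (vertical axis) of the brightest probe set of each of the 9 genes in the 3 REST shRNA arrays (red, left) and the 3 control shRNA arrays (dark, right); black bars are means, marker shapes give the replicate number and grey lines join arrays of the same number. Celsr3 separates the groups, and Celsr1 shows the single low value of 4.99 in REST shRNA array 2.

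Celsr1, the cadherin of the family best known from progenitors and epithelia, differed from Celsr3 in that 1 array set its mean. Its probe set 1418925_at read 8.91, 4.99 and 8.71 in REST shRNA arrays 1, 2 and 3, against 9.01, 8.59 and 8.55 in control arrays 1, 2 and 3. REST shRNA arrays 1 and 3 lay within the range of the control arrays, and array 2 lay 3.56 log2 units below the lowest of the others. The log2 difference over all arrays was -1.18 ± 0.99 (SE), with a limma adjusted p of 1.00, and without REST shRNA array 2 it was 0.09. Differences in pairs 1, 2 and 3 were -0.10, -3.60 and 0.16.

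The low Celsr1 signal came with low signals of astrocyte genes in the same array. Among 13832 genes above the background reference, Celsr1 had the fourth largest gap below all other arrays in REST shRNA array 2. Gfap, the intermediate filament of astrocytes, read 11.11, 5.58 and 11.73 in REST shRNA arrays 1, 2 and 3, against 9.93, 8.85 and 10.72 in control arrays 1, 2 and 3. The mean log2 signal of 8 astrocyte markers was 10.26, 8.33 and 10.24 in REST shRNA arrays 1, 2 and 3, against 10.32, 9.89 and 10.18 in control arrays 1, 2 and 3. All 8 were above the background reference, and 7 of the 8 were lowest in REST shRNA array 2. Markers of other cells were mixed there. In that array 6 of 10 progenitor, 3 of 7 oligodendrocyte lineage and 3 of 11 neuron markers were lowest. So were 3 of 5 endothelial and 3 of 6 fibroblast markers, against 1 of 7 ependymal and 0 of 6 microglia markers. The mean of the 7 oligodendrocyte lineage markers was 9.85, 9.09 and 10.23 in REST shRNA arrays 1, 2 and 3, against 9.48, 9.23 and 9.74 in control arrays 1, 2 and 3. The myelin gene Mbp, the oligodendrocyte factor Sox10 and the neuronal genes Dcx and Tubb3 each had their lowest signal in REST shRNA array 2, at 10.32, 7.14, 8.51 and 8.79. The oligodendrocyte factors Olig1 and Olig2 and the neuronal genes Nefl and Gap43 had their highest signal there, at 11.56, 10.52, 8.47 and 10.22. In bulk RNA, fewer cells of a type and less RNA per cell cannot be told apart, and the part of these markers in the Celsr1 value was not tested.

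Celsr2, expressed in progenitors, neurons and ependymal cells, gave nearly level signals. Its bright probe set 1435336_at read 10.85, 10.65 and 11.33 in REST shRNA arrays 1, 2 and 3, against 10.83, 10.87 and 10.89 in control arrays 1, 2 and 3. The REST shRNA values lay on both sides of the control values. The log2 difference was 0.08 (95% CI -0.41 to 0.56), and the dimmer probe set 1422073_a_at differed by 0.11 ± 0.25 (SE).

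**Figure D2:**
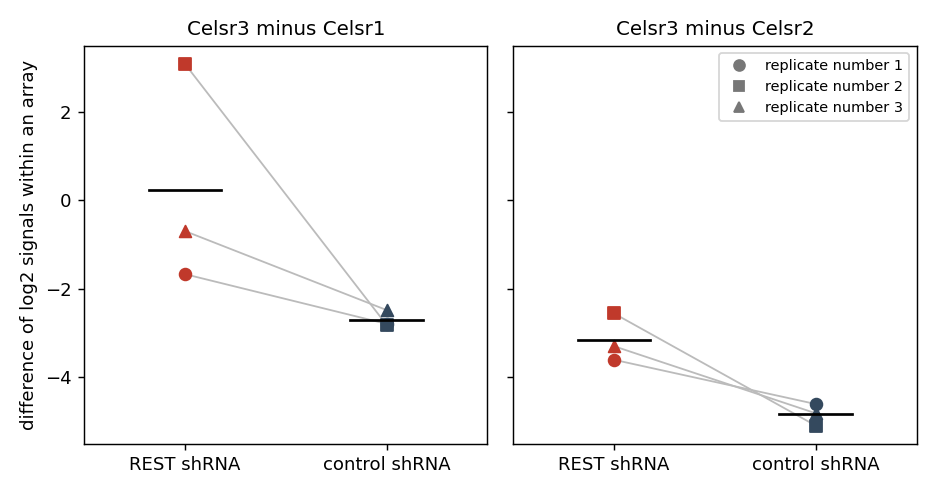
The difference between the log2 signals of Celsr3 and of Celsr1 (left panel) or Celsr2 (right panel) within each array (vertical axis), for REST shRNA (red) and control shRNA (dark) arrays; black bars are means and marker shapes give the replicate number. In both panels every REST shRNA array lies above every control array, and REST shRNA array 2 is the highest point, at 3.09 against Celsr1.

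The response of Celsr3 was set against that of its relatives by the within-array difference of log2 signals, which removes what all 3 genes share on an array. Celsr3 minus Celsr2 was -3.62, -2.57 and -3.31 in REST shRNA arrays 1, 2 and 3, against -4.62, -5.11 and -4.83 in control arrays 1, 2 and 3. The groups did not overlap, and the difference between them was 1.69 log2 units, or 1.39 without REST shRNA array 2. Celsr3 minus Celsr1 was -1.67, 3.09 and -0.70 in REST shRNA arrays 1, 2 and 3, against -2.80, -2.83 and -2.49 in control arrays 1, 2 and 3. Here too the groups did not overlap. The difference between the groups was 2.95 log2 units, and 1.52 without REST shRNA array 2. For both contrasts the exact two-sided permutation p was 0.1, adjusted over both 0.1, the smallest value this design allows. Levels of different probe sets are not on a common scale, so the change alone can be read, not the sign of the difference.

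The Frizzled receptors gave no clear difference. Fzd3, the receptor that acts with Celsr3 in axon tracts in mice, had 6 probe sets, all above the background reference, with differences from -0.32 to 0.01. Some of them, like some of Fzd6, were designed from a common source sequence and are not independent readings. The brightest, 1449730_s_at, read 9.48, 9.35 and 8.84 in REST shRNA arrays 1, 2 and 3, against 9.44, 9.29 and 9.45 in control arrays 1, 2 and 3. REST shRNA array 3 was the low value there, and its pair differed by -0.60 while pairs 1 and 2 differed by 0.04 and 0.06. A like low value of pair 3 appeared in probe sets 1420087_at (-0.76) and 1438101_at (-0.83), but not in 1450135_at (-0.13) or 1421157_at (-0.20). Pair 3 of 1434788_at differed by -0.68, but there control array 3 was high, at 8.78. The REST shRNA arrays of that probe set were nearly level, at 8.17, 8.13 and 8.10.

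Fzd6, the receptor known in mice for hair patterning and, with Fzd3, for neural tube closure, was dimmer. Its probe set 1417301_at read 4.75, 4.89 and 5.91 in REST shRNA arrays 1, 2 and 3, against 5.29, 5.01 and 5.41 in control arrays 1, 2 and 3. The groups overlapped and the log2 difference was -0.06 ± 0.32 (SE). The other 2 probe sets differed by 0.28 and 0.07, the last with a mean below the background reference.

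Vangl2, the membrane protein mutated in the loop-tail mouse, differed slightly at its brightest probe set. Probe set 1436118_at read 9.26, 9.14 and 9.30 in REST shRNA arrays 1, 2 and 3, against 9.37, 9.43 and 9.44 in control arrays 1, 2 and 3. Every REST shRNA array lay below every control array, by little, and the log2 difference was -0.18 (95% CI -0.51 to 0.15). The probe set 1419218_at differed by -0.19 and 1455592_at by 0.19, both with overlapping groups, so the 3 readings of Vangl2 did not share a sign. Both probe sets of Vangl1, its close relative, differed by -0.18, with standard errors of 0.34 and 0.20.

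Prickle1, a cytoplasmic adaptor that binds Vangl, was ordered by replicate number in both groups. Its brightest probe set, 1452249_at, read 7.81, 6.41 and 8.49 in REST shRNA arrays 1, 2 and 3, against 7.01, 6.19 and 7.55 in control arrays 1, 2 and 3. Array 2 was the lowest and array 3 the highest in both groups, and the REST shRNA array was higher in each pair, by 0.80, 0.22 and 0.95. The log2 difference was 0.66 ± 0.57 (SE) with an unadjusted limma p of 0.290. A block on replicate number left the difference as it was and gave an SE of 0.22 and an unadjusted p of 0.0229, so 2 of 22 members were under 0.05 in that fit, though the adjusted p stayed at 0.998. Leaving out REST shRNA array 2 gave a difference of 1.24, and leaving out array 3 of that group gave 0.19. Both keep the control array of the same number, so the order by replicate number enters these values. Of all probe sets, 12.2% were higher and 11% lower in all 3 pairs, against 3 and 2 of the 22 members.

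The other probe sets of Prickle1 gave little to set beside it. Probe set 1442172_at differed by 0.04, and 1444759_at, with a mean under the background reference, by -0.08. Prickle2, the paralogue expressed in neurons, read 8.06, 6.98 and 7.37 in REST shRNA arrays 1, 2 and 3, against 7.37, 7.07 and 7.18 in control arrays 1, 2 and 3. The REST shRNA values reached above and below the control range, and the log2 difference was 0.27 ± 0.28 (SE), or -0.03 without REST shRNA array 1.

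**Figure D3:**
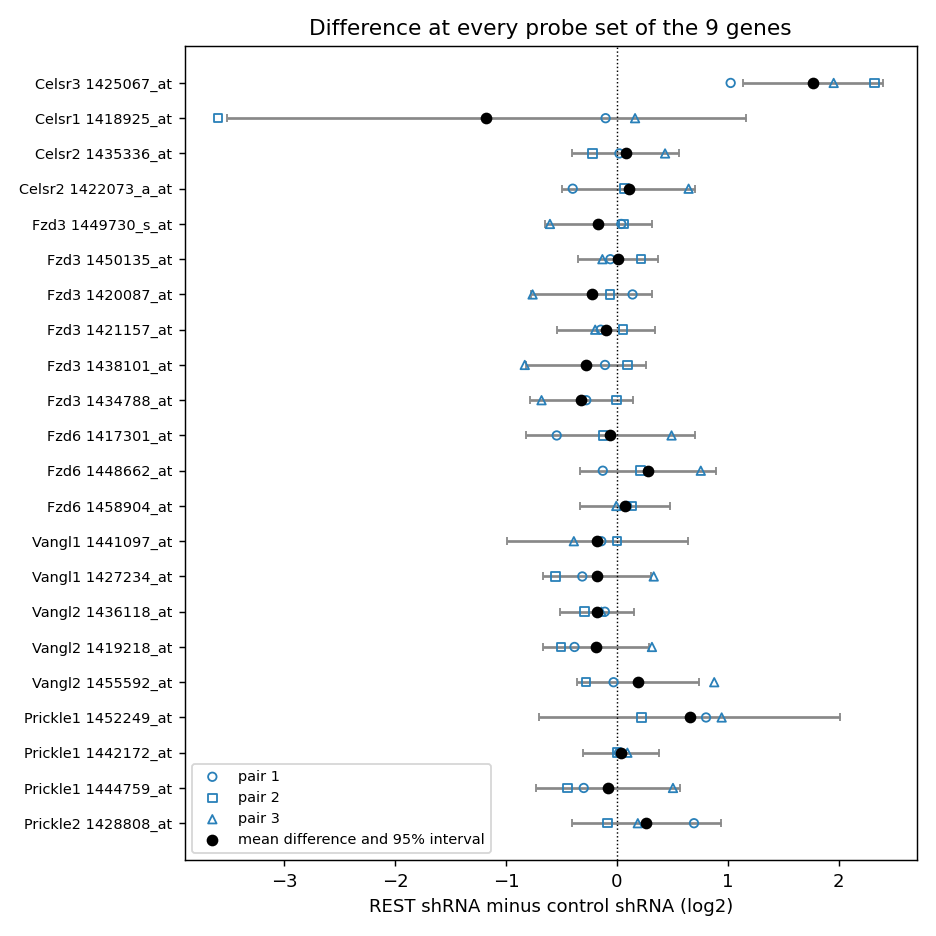
REST shRNA minus control shRNA on the log2 scale (horizontal axis) for each of the 22 probe sets; black points are means with their 95% limma intervals and open symbols are the differences of pairs 1, 2 and 3. The interval of Celsr3, 1.13 to 2.40, is the one that lies wholly to one side of 0.

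Over the 22 probe sets 10 differences were positive and 12 negative, with a median of -0.07, against 0.01 over all probe sets of the array. The members thus did not share a sign. Of the 22, 19 had a difference smaller than 0.35 in size. The 3 others were Celsr3, Celsr1 and the brightest probe set of Prickle1.

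The wider pathway gave no called gene either. Of 50 listed partners 46 had a probe set, and by the brightest probe set of each, 18 differences were positive and 28 negative, with a median of -0.04, against 0.04 over all 18194 genes. Without REST shRNA array 2 the counts were 23 and 23, and the same without array 1 of that group. Without array 3 of that group they were 17 and 29. Among these brightest probe sets 4.91% were higher and 2.65% lower without overlap, against 3 and 3 of the 46 pathway genes. The 3 higher were Ptk7, Dvl1 (0.22) and Fzd4 (0.30), and the 3 lower were Rock1, Fat1 and Fzd7. An unadjusted p under 0.05 was reached by 2.73% of all genes and by 1 of the 46, Fzd7. Among the cytoplasmic partners, Dvl2, a Dishevelled adaptor, differed by 0.41 ± 0.20 (SE, log2) and Smurf1, a ubiquitin ligase, by 0.41 ± 0.27, or 0.20 without REST shRNA array 3. Among ligands and coreceptors, Ptk7, a pseudokinase receptor, differed by 0.37 ± 0.16 and Ror2, a Wnt5a receptor, by 0.55 ± 0.38. The Ror2 value was 0.21 without REST shRNA array 2 and 0.93 without array 1 of that group. Rock1, a kinase under RhoA, differed by -0.54 ± 0.26, or -0.26 without control array 3, the high value of its group. Mapk8, which encodes JNK1, differed by 0.22 ± 0.21, or 0.088 without REST shRNA array 2.

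The remaining roles were also without a call. In the Fat and Dachsous branch, a separate set of large polarity cadherins, 5 of 6 genes were negative, with Fat1 at -0.32 ± 0.17 (SE, log2) and Fat3 at -0.35 ± 0.25. Without REST shRNA array 2, 4 of the 6 were negative and Fat3 stood at -0.59. The 3 ciliary effectors were all negative, with a median of -0.19, and Fuz and Wdpcp differed by -0.19 ± 0.19 and -0.31 ± 0.44. With single arrays left out these ran from -0.35 to -0.087 for Fuz and from -0.59 (REST shRNA array 2) to 0.18 (REST shRNA array 3) for Wdpcp. Of the other Frizzled receptors 4 were positive and 4 negative. Fzd7 had the smallest unadjusted p among them, at -0.86 ± 0.34, and read 8.29, 7.34 and 8.63 in REST shRNA arrays 1, 2 and 3, against 9.16, 8.66 and 9.02 in control arrays 1, 2 and 3. Every REST shRNA array lay below the control arrays for this probe set, while the other probe set of Fzd7 differed by -0.06. Without REST shRNA array 2 the difference at the brighter probe set was -0.48. Fzd1 differed by 0.57 ± 0.26.

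**Figure D4:**
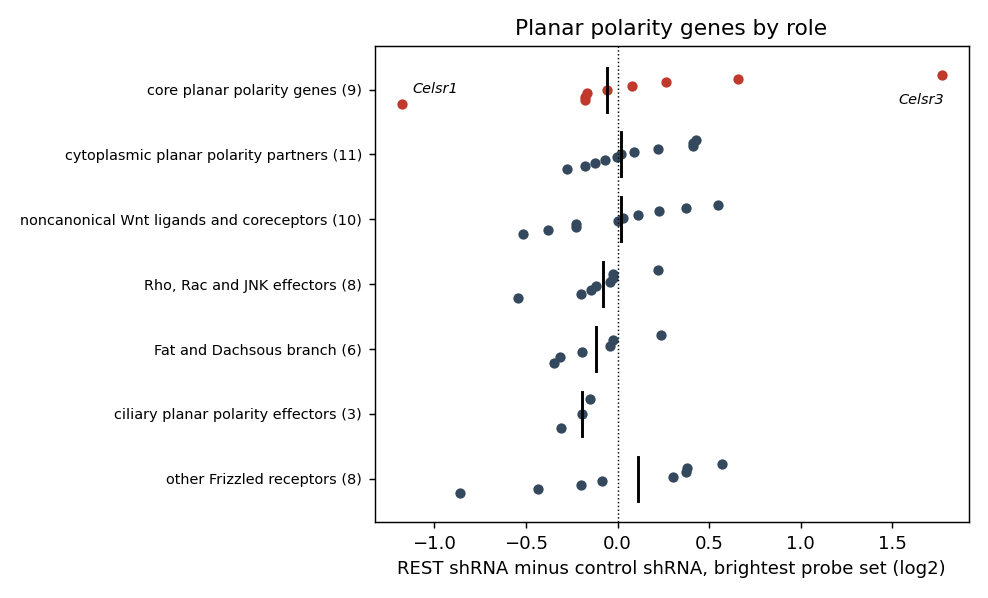
REST shRNA minus control shRNA on the log2 scale (horizontal axis) at the brightest probe set of each gene, grouped by role, with the number of measured genes in brackets; black bars are medians. Celsr3, at 1.77, lies to the right of all other genes shown and Celsr1, at -1.18, to the left.

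REST shRNA array 2 also carried the low values of other pathway genes. Of the 54 core and pathway genes above the background reference, 5 lay at least 1 log2 unit below every other array there, 9.26% against 3.19% of all genes, and in the other arrays 0 or 1 did. They were Celsr1, Daam2, a formin under Dishevelled, Ankrd6, a Dishevelled partner, the ligand Wnt5b and the receptor Fzd2. Daam2 read 7.88, 4.98 and 7.76 in REST shRNA arrays 1, 2 and 3, against 7.00, 6.92 and 7.29 in control arrays 1, 2 and 3.

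The difference of Celsr3 was not seen in the genes beside it. Of the nearest measured genes on each side, Ip6k2 and Nckipsd before it differed by -0.10 ± 0.20 and -0.12 ± 0.18 (SE, log2), and Slc26a6 and Tmem89 after it by -0.31 ± 0.31 and 0.22 ± 0.16. Without REST shRNA array 2, Ip6k2 and Slc26a6 stood at 0.091 and 0.052 and Nckipsd at -0.082. Neuron markers were also higher in REST shRNA arrays. Of 11 neuron markers 8 were higher in REST shRNA arrays, 4 without overlap, with a median of 0.68, and their mean log2 signal was 8.55, 8.10 and 8.75 in REST shRNA arrays 1, 2 and 3, against 7.55, 7.70 and 7.93 in control arrays 1, 2 and 3. Snap25, a SNARE that acts in synaptic vesicle fusion, differed by 1.58 ± 0.24 and Gap43, a growth cone protein, by 1.13 ± 0.30. Dcx, a microtubule protein of young neurons, differed by -0.20 ± 0.53, and by 0.42 without REST shRNA array 2. Within the REST shRNA group Celsr3 was highest in array 2, and so were Nefl and Gap43 of the 11 neuron markers. The mean of the 11 was lowest in that array of the group. The part of neuronal content in the Celsr3 value was not tested. Among 7 ependymal markers, cells that use Celsr2 and Celsr3 in mice, 5 were positive, 2 without overlap, with a median of 0.38. Of the 7, 5 were above the background reference, and the 2 below it were both positive. The 2 without overlap were Rsph1 and Ak7, and Ak7 had a mean of 3.37, near that reference. Dynlrb2, a dynein light chain, differed by 1.31 ± 0.43, Rsph1, a radial spoke protein, by 0.83 ± 0.28 (0.51 without REST shRNA array 2), and Foxj1, their master regulator, by -0.68 ± 0.37. The medians of the astrocyte and progenitor lists hung on REST shRNA array 2. For 8 astrocyte markers the median was -0.44 with it and 0.0066 without it, and for 10 progenitor markers -0.23 with it and -0.037 without it. For 7 oligodendrocyte lineage markers it was 0.04 with that array and -0.06 without it, and for 6 fibroblast markers 0.24 and 0.39.

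The genes whose pattern over the 6 arrays was most like that of Celsr3 were A230051N06Rik (Pearson r = 0.995), Rgs4 (0.991), Tigd3 (0.987), Ap3b2 (0.978) and Chga (0.977), out of 13831 genes above the background reference. These r are a description over 6 points that share the group difference. Rgs4, a regulator of G protein signalling, read 5.66, 6.04 and 6.04 in REST shRNA arrays 1, 2 and 3, against 4.72, 4.55 and 4.84 in control arrays 1, 2 and 3. As with Celsr3, REST shRNA array 1 was the lowest of its group and control array 2 the lowest of all. Ap3b2 is the neuronal subunit of a vesicle adaptor and Chga a granin of dense core vesicles. Of the other 8 core genes, Vangl2 had the most negative r with Celsr3, at -0.88, and Prickle1 the most positive, at 0.38.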

How the data were processed

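The deposited value table holds log2 signals per probe set, 1.00 to 14.2, and was used as the authors left it. The scale was read from the values. Their background correction, probe summary and normalization were not given in the sources used here. Once sorted, no array strayed from the mean distribution by more than 0.112, so differences are relative to other genes on an array. Amplified cDNA of total RNA was labelled with biotin, per the labels' protocols.

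Gene names came from the platform annotation, with symbols checked by gene number against RefSeq (GRCm38.p6): 34958 had 1 gene, 932 several and 9211 were not listed. The brightest probe set of a gene has the highest mean over all arrays. All 45101 probe sets, dim ones and controls included, were fitted with limma 3.58.1 in R 4.3.3 (lmFit, eBayes, group as the sole term, two-sided, Benjamini-Hochberg over all), and adjusted p under 0.05 counted as a call. The precision is limited by 3 arrays per group. Steps were tested on simulated data.

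Samples were grouped by title, and the members and gene lists were chosen with earlier results of these data known. The text names every member, Rest, the 2 pathway genes of smallest p per list, the 5 genes most like Celsr3, its measured neighbours and marker lists with up to 2 genes. Gfap, Dcx, Tubb3, Mbp, Sox10, Olig1, Olig2, Nefl, Foxj1 and Ak7 were chosen after their values were seen. So were Dvl1, Fzd4, Daam1, the promoter genes and those low in REST shRNA array 2. Deviations from group means correlated at 0.108, 0.365 and 0.504 for replicate numbers 1, 2 and 3. For unlike numbers the correlations ran from -0.426 to 0.268. The highest of these, REST shRNA array 2 with control array 1, was above that of replicate number 1. The numbers, which come from the titles, were taken to pair the arrays, with little support for number 1. The block on replicate number was an alternative fit, beside other scalings, filters, variance models and left-out arrays. No sequence was read from the samples.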

Additional observations from a re-analysis of the deposited data

How the results depend on the processing

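The count of called members was 0 in every setting tried, and so was that of all probe sets. A replicate block also gave 0, with Celsr3 at 1.77 and an adjusted p of 0.998, and changed no call; the Celsr1 and Celsr2 contrasts by pair averaged 2.95 and 1.69 (exact sign-flip p 0.25). Celsr3 stayed positive in all 18 alternatives, from 1.49 to 2.14, with adjusted p from 0.563 to 1.00. Its gain on Celsr1 ran from 1.46 to 3.90 and on Celsr2 from 1.26 to 2.03 when arrays or pairs were left out, the left-out pairs, and left-out arrays for partner and marker genes, having been added after seeing the data. Signs of small differences were not fixed. When arrays were left out, the range was -1.86 to 0.095 for Celsr1 and, for the Celsr2 probe sets, -0.11 to 0.23 (1435336_at) and -0.16 to 0.36 (1422073_a_at). It was -0.29 to 0.050, -0.10 to 0.078, -0.41 to 0.040 and -0.18 to 0.041 for Fzd3 probe sets 1449730_s_at, 1450135_at, 1420087_at and 1421157_at. It was -0.42 to 0.18 and -0.014 to 0.18 for Fzd6 probe sets 1417301_at and 1458904_at, -0.41 to 0.14 and -0.43 to 0.0097 for Vangl1 probe sets 1441097_at and 1427234_at, and -0.15 to 0.42 for Vangl2 probe set 1455592_at. It was -0.0015 to 0.091 and -0.38 to 0.15 for Prickle1 probe sets 1442172_at and 1444759_at, and -0.030 to 0.51 for Prickle2. With array weights Celsr2 probe set 1422073_a_at was at -0.050 and Fzd3 probe set 1450135_at at -0.0055, and with quantile normalization that Fzd3 probe set was at -0.0016. The cause of the sign changes was not tested, and the low Celsr1 value in REST shRNA array 2 was only described. The 2 probe sets with means near the bacterial controls can show little difference. Neither permutation test could pass 0.05 with 3 arrays per group.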

Other observations

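The letters CAGCACCNNGGNCAG occur in a promoter window of 18 genes in the RefSeq table, and 14 of them were measured. By the brightest probe set, 11 of the 14 were positive and 3 negative in REST shRNA minus control shRNA, with a median of 0.21, against 0.04 over all genes. The 4 that were higher without overlap were Celsr3 at 1.77, Amer3 at 1.72, Syn1, a protein of synaptic vesicles, at 1.23 and Lhfpl5 at 0.76. Percent called by that measure over all genes was 4.91. Clasp2 and Fam163b, which also hold the letters, differed by -0.21 and -0.21. With the A fixed, 8 genes were measured, 6 positive and 2 negative, with a median of 0.16 and 0 higher without overlap. The free form was chosen after the Celsr3 sequence was read, so these counts describe the list and were not tested.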
